A study of Mus musculus with 4 samples.

Results

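Enteric glia are the supporting cells of the gut's own nervous system, and 6 genes that mark them (S100b, Sox10, Gfap, Cdh19, Fabp7 and Entpd2) were followed here in the inflamed mouse colon. Each gene was found on the array through the RefSeq accession of its probe, and where a gene had several probes the one with the highest mean signal was kept. All 6 had a probe, among 20832 genes named on the array, and all 6 were well above background on all 4 arrays, so none was lost to the filter that left 15551 genes for testing. The tissue was the entire colon of C57BL/6J mice aged 14 weeks, either STAP-2-/- or wild type (WT). Mice of both genotypes received 1.75% dextran sulfate sodium (DSS) in the drinking water, which damages the gut lining and brings on acute colitis. STAP-2 is an adaptor protein that binds signalling molecules such as STAT3; the labels do not say which part of its gene is deleted. The labels give the DSS treatment as 3 days in one place and as 7 days in another. Each array carried RNA pooled from 3 mice, with 2 arrays for STAP-2-/- and 2 for WT, labelled as biological replicates and numbered 1 and 2 within each genotype; pool 1 and pool 2 below are these numbers, and the labels do not say what equal numbers share. No undamaged colon is among the groups, so no level can be set against a colon without DSS.

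Enteric glia arise from the neural crest and depend throughout life on the transcription factor Sox10. They lie around the neurons of the myenteric and submucosal plexus, and further glia reach into the mucosa beneath the epithelium. Sox10 and the calcium-binding protein S100b are found in most of these cells, whereas the intermediate filament protein Gfap varies with their state and is known for its increase in reactive glia. The same genes are also active in Schwann cells of nerves, and Sox10 in melanocytes. In whole tissue, fewer glia and less RNA per glial cell cannot be told apart.

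The promoters of 3 members are shown, chosen by how their transcripts behaved. S100b lay apart between the genotypes under every scaling tried, and Gfap and Fabp7 lay apart between the pools. In the scaling used below, 24.9% of all tested genes lay apart between the genotypes and 62.4% between the pools, so neither trait is particular to these members. Each promoter is the 300-base RefSeq window on GRCm38.p6 spanning the gene's start, 5′ to 3′, at chr10:76253586-76253885 (plus strand), chr11:102897151-102897450 (minus strand) and chr10:57784673-57784972 (plus strand). Capitals mark matches to TTCNNNGAA, the palindromic motif to which STAT factors bind.
S100b: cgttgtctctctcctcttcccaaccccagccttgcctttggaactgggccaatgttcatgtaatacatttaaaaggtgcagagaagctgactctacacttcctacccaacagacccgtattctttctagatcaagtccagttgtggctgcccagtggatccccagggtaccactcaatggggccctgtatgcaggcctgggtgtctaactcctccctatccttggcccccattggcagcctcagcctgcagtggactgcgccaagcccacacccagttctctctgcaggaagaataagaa
Gfap: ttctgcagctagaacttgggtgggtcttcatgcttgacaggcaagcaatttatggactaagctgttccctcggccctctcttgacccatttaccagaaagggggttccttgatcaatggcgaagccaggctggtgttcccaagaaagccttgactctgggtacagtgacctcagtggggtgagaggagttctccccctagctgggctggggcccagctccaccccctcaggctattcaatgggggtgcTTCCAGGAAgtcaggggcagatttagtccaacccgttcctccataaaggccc
Fabp7: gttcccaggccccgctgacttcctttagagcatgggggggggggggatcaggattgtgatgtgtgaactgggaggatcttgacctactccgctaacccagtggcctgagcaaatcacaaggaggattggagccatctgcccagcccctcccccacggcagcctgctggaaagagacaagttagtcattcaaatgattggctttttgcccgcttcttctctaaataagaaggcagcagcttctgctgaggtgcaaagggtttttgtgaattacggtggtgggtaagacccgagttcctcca
The Gfap window held 1 such match, starting at base 249 of the window, and the S100b and Fabp7 windows held none. Of 32851 promoter windows of this length, 8.3% held the motif. The hexamers ACAAAG and ACAATG, core forms of the motif that SOX factors bind, were searched on both strands and were found in none of these windows nor in that of Entpd2; 28.6% of all windows held at least 1 of them. Sox10 and Cdh19 had no entry in the promoter table. A match or its lack describes these letters and not the binding of a factor.

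All 4 arrays lay on 1 slide and between 68.4% and 70.5% of their gene spots were well above background. Values are log2 of the processed signal minus the log2 of the array's 75th percentile, so 0 is the level of that percentile and probes of different genes are not compared in level. Stap2, the targeted gene, was at -6.63 and -7.72 on the STAP-2-/- arrays, not well above background on either, against 2.92 and 2.98 on the WT arrays, which matches the labels. Across all tested genes, log2 differences between the STAP-2-/- arrays had an SD of 0.655 and those between the WT arrays one of 0.42. Between genotypes at equal number the SD was 0.376 in pool 1 and 0.415 in pool 2. The arrays thus differed at least as much between pools as between genotypes.

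On the kept probe of each gene, all 6 glia markers had a lower mean in STAP-2-/- than in WT colons. The log2 differences were -0.046 to -0.47 with a median of -0.25, and none reached an adjusted p under 0.05 in limma. A second Gfap probe, given below, went the other way. The same test called 0.0% of the 15551 genes. It did not call even Stap2, the targeted gene, with a log2 difference of -10.1 and a limma adjusted p of 0.316. Failing this test therefore does not show that a gene was unchanged. An unadjusted p under 0.05 was reached by 2.09% of tested genes and by 1 of the 6 markers, S100b. Values of the genotypes did not overlap for 2 of the 6, S100b and Cdh19, against 24.9% of all tested genes (13.3% in the lower direction). The median difference over all tested genes was -0.0068, and 51.7% of them were below 0. No marker differed by more than 1 in either direction, as did 0.682% of tested genes below -1 and 0.45% above 1. The members' median was -0.056 without the STAP-2-/- 1 array, -0.50 without STAP-2-/- 2, -0.43 without WT 1 and -0.11 without WT 2. With 2 arrays per genotype an exact permutation test of a single gene cannot go below p = 0.333. The p-values and intervals of limma combine a gene's own spread between these pools with a variance estimated over all tested genes. For a gene whose pools lie close together, such as S100b, they therefore do not measure its own spread alone.

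**Figure D1:**
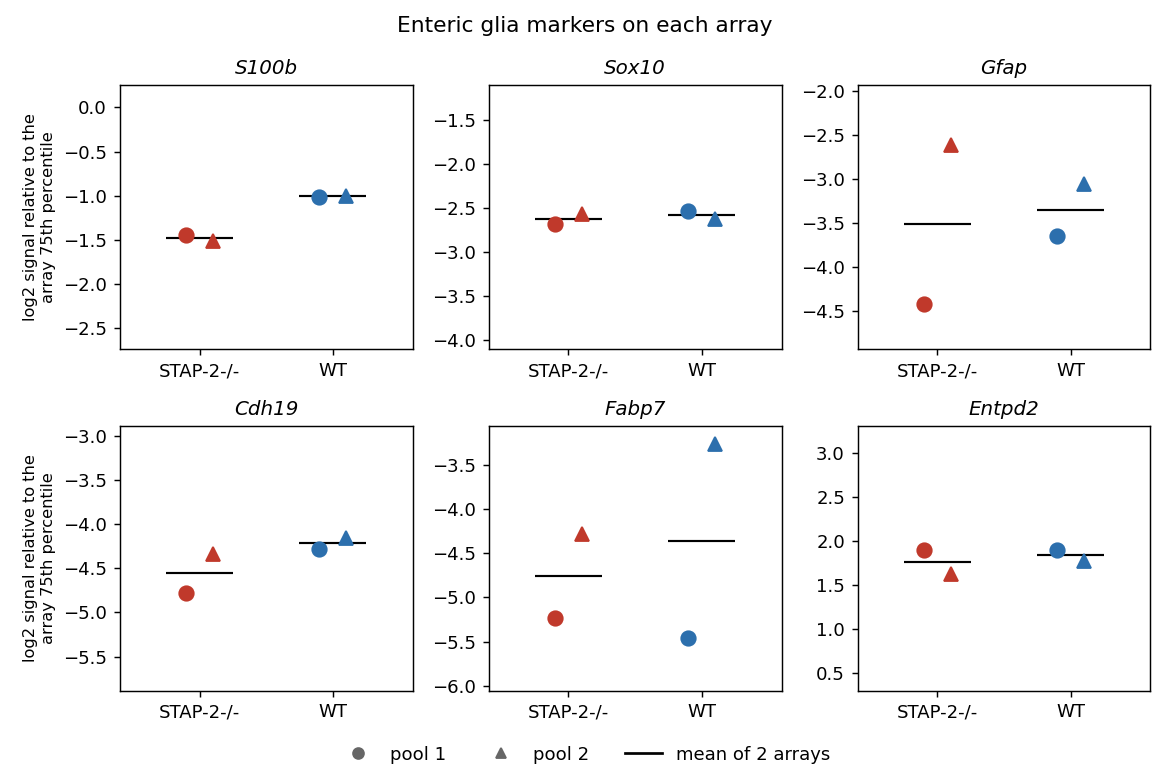
Log2 signal of the 6 glia markers relative to the 75th percentile of each array (y axis, the same span of 3 log2 units in every panel) in STAP-2-/- and WT colons (x axis); circles are pool 1, triangles pool 2 and bars the mean of 2 arrays. S100b separates the genotypes with little scatter, Gfap and Fabp7 are higher in pool 2 of either genotype, and Sox10 and Entpd2 spread little.

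Among the markers that label most enteric glia, S100b encodes a calcium-binding protein that glia also secrete. Its log2 signal was -1.45 and -1.52 in STAP-2-/- colons, against -1.01 and -1.0 in WT colons. Both STAP-2-/- pools lay below both WT pools, and each genotype's own pools were close together. The difference was -0.47 (SE 0.13, 95% interval -0.83 to -0.12), a 1.39-fold lower mean in STAP-2-/- colons, with an SD of 0.05 in STAP-2-/- and 0.0079 in WT (n = 2 each). The limma adjusted p was 1, with an unadjusted p of 0.0213. The difference ran from -0.51 to -0.44 whichever array was left out, and from -0.48 to -0.46 under the other settings tried.

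Sox10, the transcription factor that specifies and maintains the glial lineage, was at -2.68 and -2.57 in STAP-2-/- colons, against -2.54 and -2.62 in WT colons. The groups overlapped, and the spread of 0.14 over the 4 arrays exceeded that of only 8.12% of tested genes. The difference was -0.046 (SE 0.13, 95% interval -0.42 to 0.33; limma adjusted p = 1), and it was 0.011 without STAP-2-/- 1. A difference as large as that of Cdh19 lies within this interval.

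Cdh19, a cadherin of the neural crest glial lineage, was at -4.78 and -4.34 in STAP-2-/- colons, against -4.28 and -4.15 in WT colons. STAP-2-/- 1 was the lowest array, and STAP-2-/- 2 lay only 0.058 below WT 1. The difference was -0.34 (SE 0.20; limma adjusted p = 1), -0.12 without STAP-2-/- 1 and -0.56 without STAP-2-/- 2. The genotypes overlapped for Cdh19 with the array median in place of the 75th percentile, with quantile normalization and with normexp background correction, so its separation rests on the scaling.

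Entpd2 encodes an ectonucleotidase on the glial surface that splits extracellular ATP, a transmitter between enteric neurons and glia. Its log2 signal was 1.91 and 1.63 in STAP-2-/- colons, against 1.90 and 1.78 in WT colons. Both pool 1 arrays were equal within 0.0020, and both pool 2 arrays were lower. The genotype difference was -0.072 (SE 0.16, 95% interval -0.53 to 0.39; limma adjusted p = 1), and it was 0.064 without STAP-2-/- 2.

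Gfap, the filament protein of reactive glia and of astrocytes, was at -4.41 and -2.62 in STAP-2-/- colons, against -3.64 and -3.06 in WT colons. The STAP-2-/- pools enclosed both WT pools, STAP-2-/- 1 being the lowest of the 4 arrays and STAP-2-/- 2 the highest. The genotype difference of -0.16 (SE 0.69; limma adjusted p = 1) was smaller than the SD of either genotype, 1.27 in STAP-2-/- and 0.41 in WT. It was 0.73 without STAP-2-/- 1, 0.13 without WT 2, -1.06 without STAP-2-/- 2 and -0.46 without WT 1. The array held 3 Gfap probes. A second one, for another transcript, gave -4.71 and -3.65 in STAP-2-/- colons, against -4.67 and -4.18 in WT colons. STAP-2-/- 2 was again the highest array, and on this probe the STAP-2-/- mean was higher than the WT mean. The third was not well above background on any array. With the mean of the 3 probes the genotype difference was 0.040.

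Fabp7, a fatty acid binding protein of radial glia and immature glia, was at -5.23 and -4.28 in STAP-2-/- colons, against -5.46 and -3.26 in WT colons. Here WT 1 was the lowest array and WT 2 the highest, so the WT pools enclosed both STAP-2-/- pools. The genotype difference was -0.40 (SE 0.87; limma adjusted p = 1), with an SD of 0.67 in STAP-2-/- and 1.55 in WT. It was 0.079 without STAP-2-/- 1, 0.70 without WT 2, -0.87 without STAP-2-/- 2 and -1.49 without WT 1. The Fabp7 signal on WT 1 was 1.66 times the lowest signal called well above background on that array, so its low values are the least certain of the set; on WT 2 it was 10.2 times that limit.

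Set by pool instead of genotype, Gfap and Fabp7 were higher in both pool 2 arrays than in both pool 1 arrays, and Entpd2 was lower. Values of the pools did not overlap for these 3 of the 6 markers, where 62.4% of all tested genes did not overlap (26.4% in the higher and 36.0% in the lower direction), so the share among the markers was no larger than the background. No marker passed the limma test, which again called 0.0% of genes; an unadjusted p under 0.05 was reached by 2 of the 6 markers and by 25.3% of all genes. The median difference, pool 2 minus pool 1, was 0.15 over the markers and -0.041 over all tested genes. The difference was below 0 for 2 of the 6 markers and for 55.2% of all tested genes.

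Fabp7 differed by 1.57 between pool 2 and pool 1 (SE 0.37, a 2.97-fold higher mean in pool 2; limma adjusted p = 0.130, unadjusted p = 0.0104). Pool 2 exceeded pool 1 by 2.19 in WT and by 0.95 in STAP-2-/- colons, 4.58-fold and 1.93-fold. Gfap differed by 1.19 (SE 0.32, 2.28-fold; limma adjusted p = 0.143, unadjusted p = 0.0165). For Gfap the larger step was in STAP-2-/- colons, at 1.80 or 3.48-fold, against 0.59 or 1.5-fold in WT colons. The steps thus ran the same way in both genotypes but differed in size, and with 1 array per pool and genotype the difference between the steps could not be tested. Both exceeded 1, as did 2.22% of all tested genes, and no marker was below -1, as were 2.5%. Spread over the 4 arrays ranked Fabp7 above 98.0% and Gfap above 96.7% of tested genes. Fabp7 stayed between 0.90 and 2.08, and Gfap between 0.70 and 1.58, over every setting and array left out.

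The remaining markers moved less between pools. Entpd2 differed by -0.20 (SE 0.11; limma adjusted p = 0.321) and Cdh19 by 0.28 (SE 0.20; limma adjusted p = 0.421). S100b differed by -0.03 (SE 0.25) and Sox10 by 0.015 (SE 0.11), with limma adjusted p-values of 0.951 and 0.946. For S100b the sign turned to 0.035 with the array median as scale and to 0.024 with normexp. Profiles centred on each gene's mean over the 4 arrays lay closest for Sox10 and Entpd2, with a root mean square distance of 0.137, and S100b, Cdh19, Sox10 and Entpd2 were within 0.297 of each other. Gfap and Fabp7 were 0.653 apart from one another and at least 0.516 from any of these 4. The markers thus did not share 1 pattern over these arrays.

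**Figure D2:**
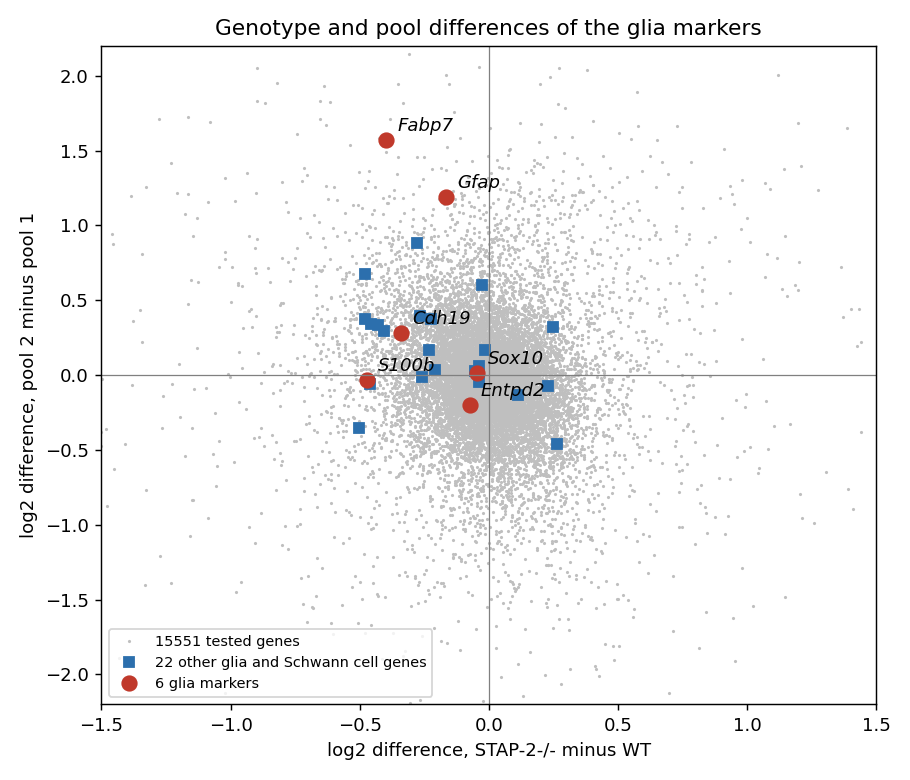
Log2 difference between STAP-2-/- and WT (x axis) against log2 difference between pool 2 and pool 1 (y axis) for the 6 glia markers (red, named), 22 other glia and Schwann cell genes (blue) and all tested genes (grey; 138 genes lie outside the axes). Every red point, which shows the kept probe of its gene, is left of 0 on the x axis, as are 51.7% of all tested genes. Fabp7 and Gfap stand above the other markers on the y axis.

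A list of 25 other enteric glia and Schwann cell genes was all on the array, and 22 of them were tested. Among those left out, Sox2, a transcription factor of glial precursors, was not well above background on any array, and the sodium channel gene Scn7a was so on 1 array. Of the 22, 18 had a lower mean and 4 a higher mean in STAP-2-/- colons, with a median of -0.23, where 51.7% of all tested genes had a lower mean. None passed the test. Groups did not overlap for 10, 9 lower and 1 higher, against 24.9% of all tested genes. The list's median was -0.045 without STAP-2-/- 1, -0.35 without STAP-2-/- 2 and -0.084 without WT 2.

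Ptprz1, a receptor phosphatase of glia, was at -0.94 and -1.18 in STAP-2-/- colons, against -0.32 and -0.79 in WT colons. Both STAP-2-/- arrays lay below both WT arrays, with WT 2 close to STAP-2-/- 1 (difference -0.50, SE 0.23; limma unadjusted p = 0.0925). Lgi4, a secreted protein that acts in Schwann cell development, was at -0.19 and -0.20 in STAP-2-/- colons, against 0.072 and 0.060 in WT colons. As with S100b, the arrays of each genotype nearly coincided, and the difference was -0.26 (SE 0.12). The potassium channel gene Kcna1 differed by -0.43 (SE 0.21) and the Schwann cell signal Dhh by -0.48 (SE 0.26). The membrane proteolipid gene Gpm6b differed by -0.40 (SE 0.21). Cnp, a myelin-associated phosphodiesterase, was the 1 of these 6 on the other side, at 0.23 (SE 0.13). All 6 had groups without overlap, and the limma adjusted p was 1 for each.

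Pool 2 exceeded pool 1 in mean for 15 of the 22 genes and was below it for 7, with a median difference of 0.17. That median was 0.051 without STAP-2-/- 1, 0.070 without WT 2 and 0.25 without WT 1. For 10 the pools did not overlap, 7 higher and 3 lower, against 62.4% of all tested genes.

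Signals that act on glia were described from a list of 17 ligands, receptors and channels, of which 16 were tested. Means were lower in STAP-2-/- colons for 10 and higher for 6, with a median of -0.19, and none passed the test. Edn3, counted as lower, was well above background on 3 arrays only. Over genes above background on all 4 arrays the median was -0.17. Groups did not overlap for 6 of the 16, 4 lower and 2 higher, against 24.9% of all tested genes. Artn, a GDNF family ligand, was at -2.73 and -2.57 in STAP-2-/- colons, against -2.19 and -1.93 in WT colons (difference -0.59, SE 0.16). Gdnf, the ligand that drives growth of enteric nerve precursors, was at -2.40 and -1.91 in STAP-2-/- colons, against -1.64 and -1.42 in WT colons (difference -0.63, SE 0.23). Both STAP-2-/- pools were below both WT pools for these ligands. Gfra1, the receptor subunit for Gdnf, was higher by 0.25 (SE 0.13) with no overlap. It was at -5.17 and -5.22 in STAP-2-/- colons, against -5.46 and -5.42 in WT colons. On WT 1 this is about the signal of Fabp7, so Gfra1 lay as near to the background limit there and is uncertain. Nrg1, a ligand of the ERBB receptors on glia, differed by -0.90 (SE 0.48) with overlapping groups. The limma adjusted p was 1 for these 4 genes. Ager, a receptor to which secreted S100b binds, was not well above background on any array. The list's median was -0.027 without WT 2, -0.056 without STAP-2-/- 1 and -0.34 without STAP-2-/- 2.

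Around Entpd2, 13 genes of nucleotide breakdown and adenosine reception were all tested. Of these, 11 had a lower and 2 a higher mean in STAP-2-/- colons, where 51.7% of all tested genes had a lower mean. Their median of -0.16 ran from -0.28 to -0.12 with an array left out. Groups did not overlap for 3, all lower, a share near the 24.9% of all tested genes. Adora1, an adenosine receptor, was at -2.65 and -2.77 in STAP-2-/- colons, against -2.09 and -1.95 in WT colons. The groups were well apart (difference -0.69, SE 0.14; limma adjusted p = 1, unadjusted p = 0.00833). Entpd3, a related ectonucleotidase of neurons, differed by -0.37 (SE 0.14) and Entpd4 by -0.30 (SE 0.18), both without overlap. Adora2b, another adenosine receptor, differed by -0.71 (SE 0.51), and only STAP-2-/- 1, at -3.32, departed from the other arrays, which lay between -1.95 and -1.90.

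Paralogues of Fabp7 and S100b were described beside them. Of 8 FABP family genes 6 were tested, 4 with a lower and 2 with a higher mean in STAP-2-/- colons. Fabp6, the bile acid binding protein of the ileum, was at 0.74 and 2.06 in STAP-2-/- colons, against -0.024 and 0.098 in WT colons (difference 1.36, SE 0.49). Fabp4, the fat cell member, differed by -0.62 (SE 0.25), Fabp1 by -0.36 (SE 0.69) and Fabp5 by -0.065 (SE 0.14). Of 11 S100 family genes 9 had a lower and 2 a higher mean in STAP-2-/- colons, and 2 of the 11 did not overlap, against 24.9% of all tested genes, S100a4 at -0.30 (SE 0.18) and S100a13 at -0.15 (SE 0.13). S100g and S100a6, both overlapping, differed by 0.62 and -0.17. The limma adjusted p was 1 for these 8 genes.

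Neurons and muscle of the gut wall surround the glia, and none of their listed genes passed the test. Of 20 enteric neuron genes, 20 had a lower mean in STAP-2-/- colons, with a median of -0.24, where 51.7% of all tested genes had a lower mean. For 10 of the 20 the groups did not overlap, all lower, against 13.3% of all tested genes. Gal, a neuropeptide gene chosen after its value was seen, had the smallest difference at -0.0017. Nos1, counted in the 20 and in the 10, was well above background only on the 2 WT arrays, so the filter kept it through WT. The other 19 genes were so on all 4 arrays, with a median of -0.24. The list's summed signal, in units of the 75th percentile, was 31.1 and 30.2 in STAP-2-/- colons, against 35.8 and 34.1 in WT colons. Snap25, picked after its value was seen, made up the largest part of this sum. It was at 4.15 and 3.83 in STAP-2-/- colons, against 4.26 and 4.02 in WT colons, with overlapping groups. Chat, the enzyme that makes acetylcholine, was at -3.68 and -3.58 in STAP-2-/- colons, against -3.06 and -3.16 in WT colons (difference -0.52, SE 0.13). Tac1, which encodes the precursor of substance P, differed by -0.40 (SE 0.15). For Syt1, a calcium sensor of synaptic vesicles, the difference was -0.38 (SE 0.15). Of 12 smooth muscle genes, 12 had a lower mean and 5 did not overlap, again against 13.3% of all tested genes. The muscle list had a median of -0.14, which ran from -0.22 to -0.12 with an array left out. Its summed signal was 346.3 and 342.4 in STAP-2-/- colons, against 398.5 and 392.1 in WT colons. The filament gene Synm differed by -0.44, Cnn1, a calponin of contractile cells, by -0.32, the actin gene Actg2 by -0.26 and the tropomyosin gene Tpm2 by -0.21. Summed signals of neuron and muscle genes thus kept the genotypes apart in every pool, as S100b did. So did those of the fibroblast and the other glia genes. The summed signal of the 6 markers did not. It was 4.378 and 3.884 in STAP-2-/- colons, against 4.561 and 4.376 in WT colons, with STAP-2-/- 1 above WT 2. The part of neuron and muscle genes in the S100b difference was not tested.

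Connective tissue and fat cell genes showed wider scatter between arrays. Of 9 fibroblast genes 9 had a lower mean and 4 did not overlap, against 13.3% of all tested genes, with a median of -0.32 and a summed signal of 129 and 106 in STAP-2-/- colons, against 135 and 166 in WT colons. The list's median was -0.57 without WT 1, and the value nearest to 0 with an array left out was -0.23. The matrix protein genes Dpt, Lum, Sparc and Dcn differed by -0.31, -0.48, -0.44 and -0.27. Of 6 adipocyte genes 5 had a lower mean and 1 (Retn) did not overlap, against 13.3% of all tested genes in the lower direction. Their median of -0.46 was 0.13 without WT 1, -0.060 without STAP-2-/- 2, -0.79 without STAP-2-/- 1 and -1.05 without WT 2. Their summed signal was 14.8 and 9.27 in STAP-2-/- colons, against 23.8 and 12.5 in WT colons. The pools thus did not overlap, whereas the genotypes did, with STAP-2-/- 1 above WT 2. Retn, Plin1, Adipoq and Plin4 differed by -0.99, -0.66, -0.60 and -0.32.

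Epithelial and leukocyte genes did not lie on the lower side as a group. Of 9 epithelial genes 8 were on the array under a matched accession and tested, 4 with a lower and 4 with a higher mean and a median of 0.011. That median was -0.083 without STAP-2-/- 2, -0.031 without WT 1, -0.062 without WT 2 and 0.042 without STAP-2-/- 1. Their summed signal was 379 and 413 in STAP-2-/- colons, against 379 and 354 in WT colons. Car1, Slc26a3, Cdx2 and Krt8 differed by 0.31, -0.57, -0.39 and 0.21, all with overlapping groups. Of 9 leukocyte genes 7 were tested, 5 with a higher and 2 with a lower mean and a median of 0.14, which was 0.036 without WT 1 and 0.25 without STAP-2-/- 2. Their summed signal was 30.3 and 26.7 in STAP-2-/- colons, against 31.1 and 27.4 in WT colons, most of it from Itgam, a myeloid integrin gene, so the sum says little of the other 6 genes. The T cell genes Cd3e, Cd8a and Cd4 differed by 0.42, 1.52 and 0.21. These 3 of the 7 did not overlap, against 11.5% of all tested genes in the higher direction. Cd8a rose by 2.39 from STAP-2-/- 1 to STAP-2-/- 2, more than its genotype difference. Of 5 melanocyte genes, which bear on Sox10, Tyrp1 and Mlana were not well above background on any array. The other 3, Dct, Tyr and Pmel, differed by -0.26, 0.25 and -0.10, and their summed signal was 0.217 and 0.187 in STAP-2-/- colons, against 0.214 and 0.228 in WT colons. No gene of the fibroblast, adipocyte, epithelial, leukocyte or melanocyte lists passed the test.

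**Figure D3:**
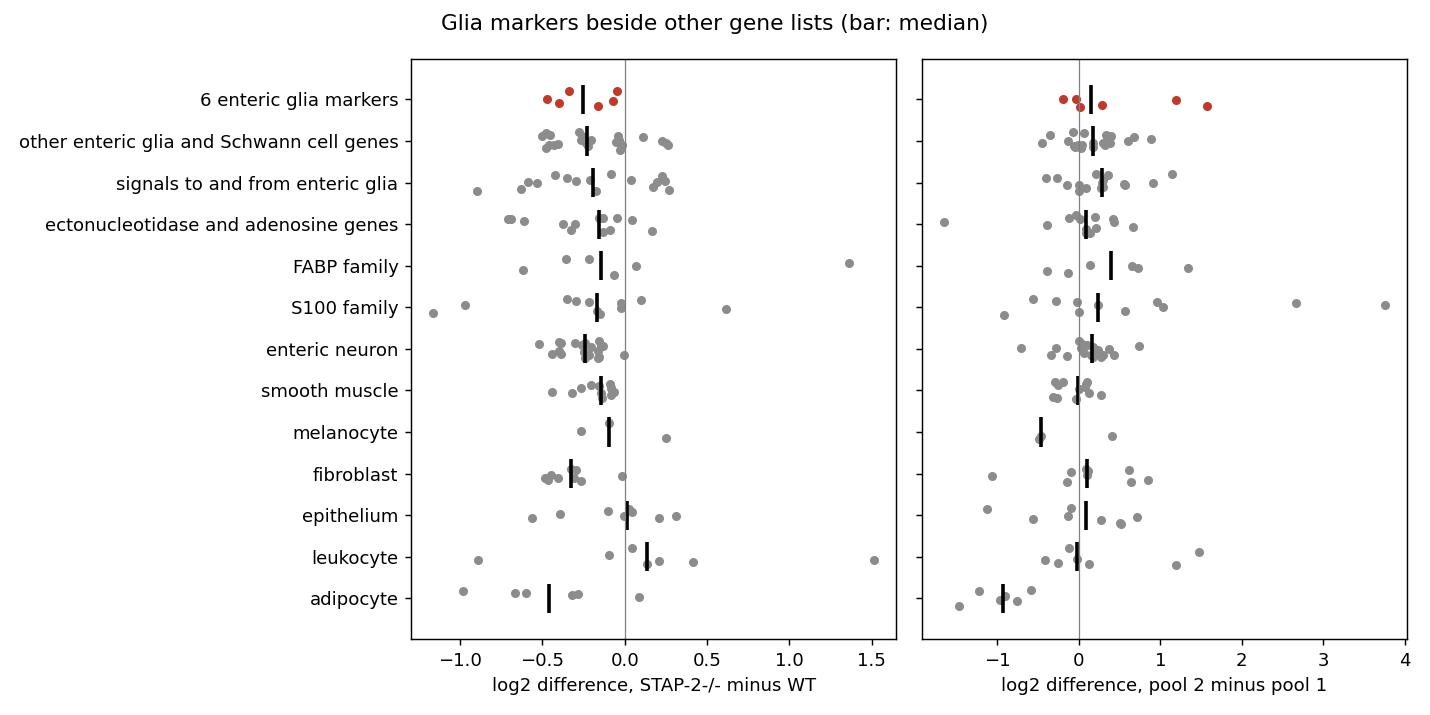
Log2 differences of the tested genes of each list, STAP-2-/- minus WT on the left and pool 2 minus pool 1 on the right, 1 point a gene and a bar at the median. On the left 20 of 20 neuron, 12 of 12 smooth muscle, 9 of 9 fibroblast and 18 of 22 other glia genes lie below 0, against 51.7% of all tested genes. So do 11 of 13 ectonucleotidase and adenosine genes and 9 of 11 S100 genes, but only 4 of 8 epithelial and 2 of 7 leukocyte genes. The neuron gene Nos1 was well above background only in WT. On the right the glia markers spread up to 1.57.

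Genes of blood-derived cells lay on either side between the pools in which Gfap and Fabp7 differed. S100a9, a calprotectin subunit of neutrophils, was at -1.30 and 1.02 in pool 2 of STAP-2-/- and WT colons, against -3.71 and -4.08 in pool 1. S100a8, its partner, was at -3.29 and -1.11 in pool 2 of STAP-2-/- and WT colons, against -4.95 and -4.80 in pool 1. For both genes the highest array was WT 2, as for Fabp7 and not as for Gfap. Ptprc, the pan-leukocyte gene, was at -0.62 and -1.05 in pool 2 of STAP-2-/- and WT colons, against -2.10 and -1.94 in pool 1, with STAP-2-/- 2 the highest as for Gfap. Itgam was at 4.25 and 4.35 in pool 2 of STAP-2-/- and WT colons, against 4.52 and 4.61 in pool 1, so it was lower in both pool 2 arrays. Over the leukocyte list as a whole, 3 of 7 genes had a higher and 4 a lower mean in pool 2, with a median of -0.025, and Ptprc was the 1 gene of the list higher without overlap. The limma adjusted p was 0.125, 0.147 and 0.0965 for S100a9, S100a8 and Ptprc, and their part in the Gfap and Fabp7 values was not tested. S100a8 and S100a9 are on the S100 list and not on the leukocyte list, and these 2 genes, Ptprc and Itgam were picked after their values were seen.

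The genes most like the markers' mean pattern were sought among 15139 other genes well above background on all 4 arrays. The mean centred profile of the 6 markers was -0.37 and 0.12 in STAP-2-/- colons, against -0.10 and 0.35 in WT colons. Gfap and Fabp7, whose spreads over the 4 arrays were 1.80 and 2.19, weighed most in this mean. By root mean square distance over the 4 arrays the nearest 8 were Nhsl1, the copper protein gene Cp, Dip2c, the semaphorin gene Sema4f, Tatdn1, Olfm1, the cholinesterase anchor gene Prima1 and Plat, the tissue plasminogen activator, at distances of 0.0224 to 0.0331. With 4 points per profile, many genes come close to any shape, and the order of these 8 is a description.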

How the data were processed

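RNA of entire colons was measured on 4 one-colour (Cy3) Agilent mouse arrays of 44397 spots, 1 per pool of 3 mice. The authors' deposited scanner files, made with Agilent Feature Extraction 10.7.1.1 per the submitters' processing notes, give processed signal intensity per spot, which per the file headers had background removed and spatial trends corrected on each array, without scaling across arrays. The value table, also deposited by the authors, gives a ratio, the processed signal over 1 constant per array (within 1% for at least 99.96% of probes compared; column medians 0.091, 0.085, 0.091 and 0.087 for STAP-2-/- 1, STAP-2-/- 2, WT 1 and WT 2); it is linear and was an alternative only.

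Control spots were left out, flagged spots set missing, spots of a probe averaged, and log2 intensity taken relative to each array's 75th percentile. Of 39429 probes 27427 were named through unversioned RefSeq accessions (GRCm38.p6 table). A gene, represented by its probe of highest mean, was tested if well above background on both arrays of a genotype; 11 genes with a flagged spot were dropped. limma 3.58.1 in R 4.3.3 was fitted without covariates over 15551 genes, adjusted by Benjamini-Hochberg (threshold 0.05), for genotype and for pool number. The fit was run on simulated data, with noise independent between arrays and added changes far larger than those of the glia markers. That run checked the direction of the differences and does not measure power at the sizes reported here. Intervals are limma's. The members and lists were chosen with earlier results of these data known. Besides the 6 members, named genes are Stap2, up to 4 genes of a list (8 for the other glia genes) with the smallest genotype p, and the 8 nearest profiles. Exceptions are named as such or are list members not above background on every array. Some genes that this rule names are not reported here. Alternatives were other scalings, the value table, normexp on the median intensity with an offset of 50, other filters, flagged spots kept, the mean of probes, a trend and robust fit, a block and leaving out each array. Python 3.11.15 with pandas 2.3.3 was used for tables.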

Additional observations from a re-analysis of the deposited data

Results flagged for a closer look

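For 4 markers the STAP-2-/- array lay on opposite sides of the WT array in pool 1 and pool 2; with 1 array per genotype and pool these differences were not tested. STAP-2-/- minus WT was -0.77 in pool 1 and 0.44 in pool 2 for Gfap, and 0.23 in pool 1 and -1.02 in pool 2 for Fabp7. For Sox10 it was -0.14 in pool 1 and 0.052 in pool 2, and for Entpd2 0.0020 in pool 1 and -0.15 in pool 2. For 2 markers pool 2 minus pool 1 had opposite signs in the genotypes, also untested. It was -0.071 in STAP-2-/- and 0.011 in WT colons for S100b, and 0.11 in STAP-2-/- and -0.084 in WT colons for Sox10.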

How the results depend on the processing

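No glia marker passed the adjusted threshold in either comparison under any alternative run. The count of markers without overlap between genotypes, 2 in the report, was 1 with the array median, with quantile normalization and with normexp, and 3 to 5 with an array left out, which loosens the rule; between pools, against 3 in the report, it was 4 with the array median and with quantile normalization, where Cdh19 was added, and 4 to 5 with an array left out. The members' median genotype difference ran from -0.50 to -0.056 with an array left out, and their median pool difference from -0.011 to 0.36. Over all tested genes 1 gene, Stap2, passed the genotype test with normexp, against 0, and 0 to 1 passed the pool test with an array left out (Six2, without WT 1). Genotype differences that turned sign were those of Gfap, 0.040 with the mean of its probes and -1.06 to 0.73 with an array left out, Fabp7 (-1.49 to 0.70), Sox10 (-0.10 to 0.011) and Entpd2 (-0.21 to 0.064). Pool differences that did were those of S100b, 0.035 with the array median, 0.024 with normexp and -0.29 to 0.23 with an array left out, and Sox10 (-0.057 to 0.087). Equal numbers had correlated deviations from the genotype means (0.596 over genes), but 2 pairs and the labels do not establish pairing. With the replicate number as a block, 1040 genes had an unadjusted genotype p under 0.05, against 325, none passed after adjustment, and the adjusted p of S100b was 0.699. The cause of these changes was not tested. The number of arrays, 2 per group, and the low signal of Fabp7, Cdh19 and Gfap over background limit precision.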
